A study of Mus musculus with 9 samples.

Results

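Transcripts of the interleukin-1 (IL-1) and IL-18 families were followed across 3 populations of mouse bone marrow Ly6Chi CD115+ cells. The 10 genes were chosen by name: the ligands Il1b, Il1a and Il18, the receptor antagonist Il1rn, and the receptor chains Il1r1, Il1r2, Il1rap, Il18r1, Il18rap and Il1rl1. Of these 10 genes, 8 had a probe set that names them alone, out of 19937 such genes on the array, and each of the 8 had 1 probe set. Il1r1 and Il1rl1 were not analysed here. The cells came from unmanipulated C57Bl/6 mice of 8 weeks kept free of specific pathogens, and no population carried a transgene, a deletion or a treatment. R3 was sorted as Flt3+CD11c+, R2 as Flt3+CD11c- and R1 as Flt3-CD11c-, each from lineage-negative cells without surface MHC class II, and each was measured on 3 Affymetrix whole-transcript arrays. Dates in the labels tie 1 array of each population together as replicates 1, 2 and 3, and no source says whether the arrays of a population held cells of different mice. The p-values therefore measure the spread between arrays. The design asked how dendritic cell precursors (R3) and the Flt3+ and Flt3- monocyte populations (R2 and R1) differ in expression before any inflammation.

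IL-1α and IL-1β signal through IL-1 receptor type 1 paired with the accessory chain IL-1RAP, and IL-18 signals through IL-18Rα paired with IL-18RAP. Both receptors recruit the adaptor MyD88 and IRAK kinases and activate NF-κB. IL-1β and IL-18 are made as inactive precursors that caspase-1 cleaves in inflammasomes. The pathway has several natural brakes: IL-1 receptor antagonist occupies the type 1 receptor without signaling, the decoy receptor IL-1R2 binds ligand without signaling, and IL-18 binding protein captures IL-18. Monocytes are known for rapid induction of IL-1β after microbial stimuli, whereas a pool of IL-18 precursor is held by many resting myeloid cells.

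The 250 bases before the transcription start are shown for the genes whose transcripts differed between populations and for Il1b, which had no call (RefSeq, GRCm38.p6). These are chr9:50554450-50554699 (Il18), chr2:24345121-24345370 (the third of 3 annotated Il1rn starts), chr16:26581455-26581704 (Il1rap), all on the plus strand, and chr2:129371140-129371389 (Il1b, minus strand). Capitals mark matches to the PU.1 motif GAGGAA, the C/EBP motif TTNCNNAA, the interferon response motif GAAANNGAA or the NF-κB motif GGGANTTTC, searched on both strands.
Il18: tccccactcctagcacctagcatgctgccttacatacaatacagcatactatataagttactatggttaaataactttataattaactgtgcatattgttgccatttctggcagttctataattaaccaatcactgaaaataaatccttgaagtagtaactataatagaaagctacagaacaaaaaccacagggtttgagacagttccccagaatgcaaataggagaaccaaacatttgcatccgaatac
Il1rn: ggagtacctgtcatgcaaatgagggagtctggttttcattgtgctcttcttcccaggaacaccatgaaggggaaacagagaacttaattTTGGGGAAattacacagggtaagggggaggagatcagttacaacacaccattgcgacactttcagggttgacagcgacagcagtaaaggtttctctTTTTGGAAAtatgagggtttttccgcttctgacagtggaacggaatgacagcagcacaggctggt
Il1rap: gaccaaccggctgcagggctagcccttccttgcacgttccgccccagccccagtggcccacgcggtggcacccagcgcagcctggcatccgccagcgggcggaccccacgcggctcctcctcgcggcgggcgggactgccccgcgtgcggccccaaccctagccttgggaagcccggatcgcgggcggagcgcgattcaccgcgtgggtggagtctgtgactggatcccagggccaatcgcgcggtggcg
Il1b: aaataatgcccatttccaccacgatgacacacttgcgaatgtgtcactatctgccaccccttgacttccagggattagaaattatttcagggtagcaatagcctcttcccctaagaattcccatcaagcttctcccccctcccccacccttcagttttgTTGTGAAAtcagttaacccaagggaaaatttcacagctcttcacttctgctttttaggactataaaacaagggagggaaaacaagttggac
The Il18 and Il1rap windows held no match to any of the 4 motifs. The Il1rn window shown held 3 C/EBP matches, of which 2 overlap, and was the one with the most matches: the window of the first Il1rn start held 0 and that of the second held 1. The Il1b window held 1. Over all 32851 mouse windows of this length, 36.8% held the C/EBP letters, 23.3% the PU.1 letters, 7.1% the interferon response letters and 0.9% the NF-κB letters. All 8 measured genes were found in the promoter table, with 12 windows. Of these 8 genes, 4 had a C/EBP match, 3 a PU.1 match and none an interferon response or NF-κB match. Counted by window, as the shares above are, 5 of the 12 held a C/EBP match and 3 a PU.1 match. A PU.1 match overlapped a C/EBP match in the Il1a window. A match of letters is a description and not a bound site.

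Values are log2 of the deposited intensity unless stated. The medians of the 9 arrays lay between 58.0 and 64.7 on the linear scale. The monocyte markers had summed intensities of 9115 to 10207 in R3, 11825 to 12293 in R2 and 14308 to 15178 in R1 (8 of 10 genes measured). The dendritic cell precursor markers summed to 12925 to 15152 in R3, 1957 to 2637 in R2 and 1614 to 2448 in R1 (10 genes, of which Flt3 and Itgax encode proteins used in the sort). Of these 10, 8 were called higher in R3 and 1 lower in both comparisons, and Batf3 had no call. The lower one was Id2, with means of 7.29 in R3, 9.13 in R2 and 9.53 in R1. Among markers of other cells, the mean of the neutrophil granule genes Ltf, Camp and Ngp was 10.15, 5.78 and 8.28 in R3 replicates 1, 2 and 3, against 5.94 to 7.17 in R2 and 5.11 to 6.54 in R1. R3 replicates 1 and 3 thus read above all other arrays for the mean of these 3 genes, which were picked after their values were seen, and the term granule-high refers to these genes alone. Other neutrophil genes followed in part. Lcn2 moved with Ltf, Camp and Ngp within R3, but it was bright in R2 and R1 as well. It read 10.48, 6.83 and 9.25 in R3 replicates 1, 2 and 3. Its range was 9.73 to 10.52 in R2 and 8.68 to 11.09 in R1. Retnlg read 4.60, 4.09 and 5.07 in these R3 replicates, 4.17 to 4.28 in R2 and 3.99 to 4.50 in R1. Mmp9 did not follow, at 4.65, 4.66 and 4.92 in R3, 4.45 to 4.63 in R2 and 4.65 to 4.79 in R1. The neutrophil surface gene Ly6g read 4.32 to 4.87 in R3, 4.21 to 4.40 in R2 and 4.39 to 5.03 in R1. The neutrophil list summed to 455 to 5579 in R3, 1864 to 2683 in R2 and 1660 to 3356 in R1 (9 of 9 genes measured), and 1 of the 9, Csf3r, was called, lower in R3 in both comparisons.

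In the reported fit, R3 cells held less Il18 and less Il1rn than R2 and R1 cells. R3 also held less Il1rap than R1. Of these calls, that of Il18 against R2 was lost in 12 of 22 alternative settings and that of Il1rap in 14 of 22. No member was called higher in R3. Against R2, 2 of 8 members were called lower in R3 and 0 higher (limma, adjusted p under 0.05 over all genes), where 4.69% of all genes were called lower and 4.85% higher. Against R1, 3 of 8 were called lower and 0 higher, where 7.02% of all genes were called lower and 6.49% higher. Between R2 and R1 none of the 8 was called, and 0.391% of all genes were called in that comparison. At an unadjusted p under 0.05, 3 members and 3868 of all genes passed between R3 and R2, 5 members and 4802 genes between R3 and R1, and 2 members and 2129 genes between R2 and R1. The median log2 fold change of the 8 members was -0.15 (R3 minus R2), -0.31 (R3 minus R1) and -0.03 (R2 minus R1), beside -0.01, -0.02 and -0.02 over all genes. In bulk samples, fewer cells of a type and less RNA per cell cannot be told apart.

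**Figure D1:**
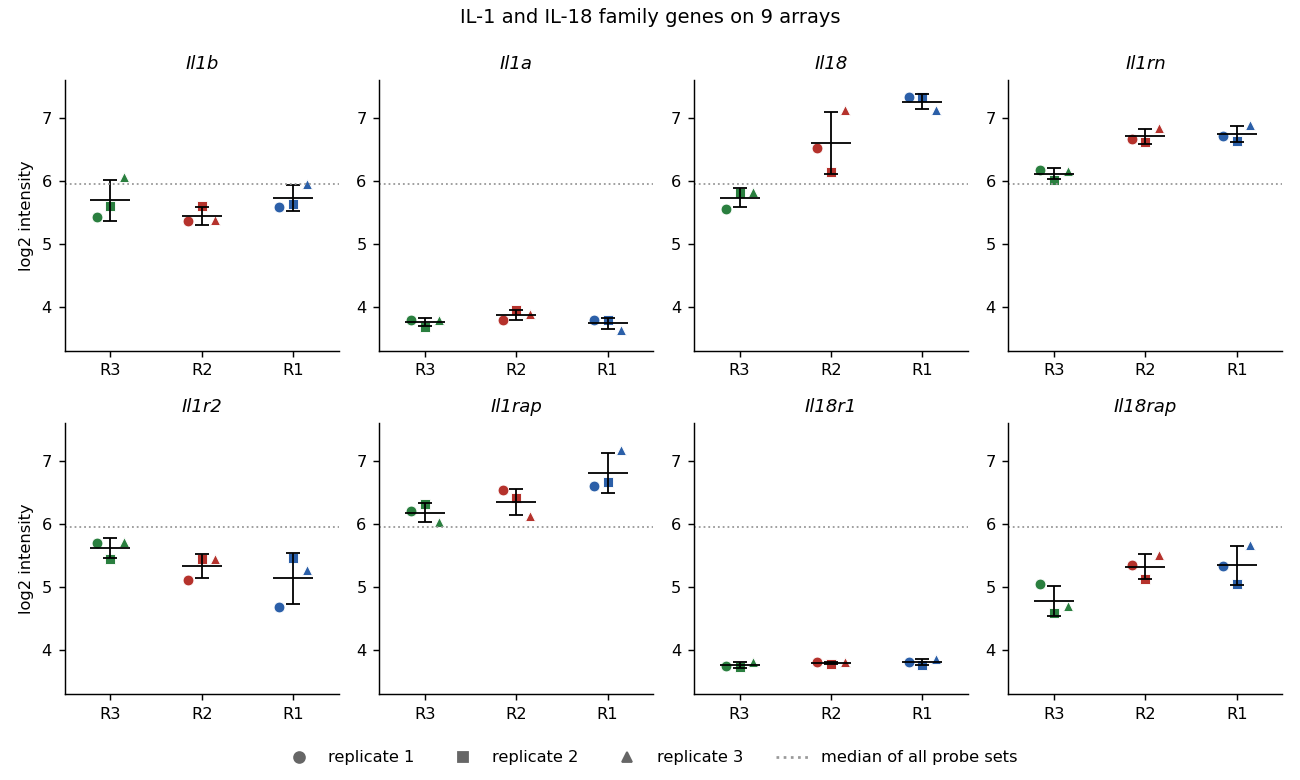
Log2 intensity (y axis) of each of the 8 measured genes on every array, with R3, R2 and R1 from left to right. Point shapes mark replicates, horizontal lines the mean and error bars 1 SD (n = 3 arrays), and the dotted line is the median of all probe sets (5.94). The 3 R3 arrays lie below all R2 and R1 arrays for Il18, Il1rn and Il18rap.

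Il18 (probe set 10585194, chromosome 9), which encodes the IL-18 precursor, showed the largest differences of the 8 genes. It read 5.55, 5.81 and 5.82 in R3, 6.52, 6.14 and 7.13 in R2, and 7.32, 7.32 and 7.11 in R1. R3 did not overlap the other populations, whereas the highest R2 array lay just above the lowest R1 array. Il18 averaged 5.73 ± 0.15 in R3, 6.60 ± 0.50 in R2 and 7.25 ± 0.12 in R1 (SD, n = 3 each), so the R2 arrays were the most spread. R3 was 2.88-fold lower than R1 (log2 fold change -1.52, 95% interval -2.003 to -1.05, SE 0.21, limma adjusted p = 0.00125). R3 was 1.82-fold lower than R2 (log2 fold change -0.87, interval -1.35 to -0.39, SE 0.21, limma adjusted p = 0.0322). The R2 mean lay between the others, and R2 minus R1 was -0.66 (interval -1.14 to -0.18) with a limma adjusted p of 0.279.

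The Il18 call against R1 was kept in 20 of 22 alternative settings and was lost without replicate 1 of all populations (limma adjusted p = 0.0601). The call against R2 was lost in 12 of 22, with limma adjusted p from 0.0675 to 0.117 without any single R3 array, 0.0838 without R2 replicate 1, 0.0546 without R1 replicate 2 and 0.0635 to 0.271 without any 1 replicate number, and the log2 fold change stayed between -1.13 and -0.60. Without the R3 arrays that were high in granule genes (replicates 1 and 3), Il18 was not called: R3 minus R1 was -1.44 (limma adjusted p = 0.0524) and R3 minus R2 was -0.79 (limma adjusted p = 0.319), with the lone R3 array assumed to vary like the other populations. The monocyte markers moved the same way, with 5 of 8 called lower and 0 higher against R1, and 4 called lower and 1 higher against R2. Their part in the difference of Il18 was not tested.

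Il1b (probe set 10487597) and Il1a (probe set 10487588), the IL-1 ligands on chromosome 2, were not called in any comparison. Il1b read 5.43, 5.59 and 6.05 in R3, 5.35, 5.60 and 5.37 in R2, and 5.58, 5.63 and 5.95 in R1. The populations overlapped, and the highest value was that of R3 replicate 3. The log2 fold change was 0.25 for R3 against R2 (interval -0.12 to 0.62), -0.03 for R3 against R1 (interval -0.40 to 0.34) and -0.28 for R2 against R1 (interval -0.65 to 0.09), with limma adjusted p of 0.515, 0.941 and 0.627. R3 minus R2 rested on single arrays, at 0.07 without R3 replicate 3, 0.38 without R3 replicate 1 and 0.03 without replicate 3 of all populations. Il1a read 3.68 to 3.79 in R3, 3.79 to 3.95 in R2 and 3.63 to 3.79 in R1, and its mean stood at percentile 14.1 of the means of all probe sets. Its 9 arrays held 6 distinct values, with 1 deposited value shared by 4 arrays, so its differences of -0.12, 0.02 and 0.14 (R3 minus R2, R3 minus R1, R2 minus R1) carry little information.

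Il1rn (probe set 10469816, chromosome 2), the receptor antagonist that competes with both IL-1 ligands, was lower in R3 than in both monocyte populations. It read 6.16, 6.02 and 6.15 in R3, 6.66, 6.61 and 6.84 in R2, and 6.70, 6.63 and 6.87 in R1. Every R3 array lay below every array of the other populations, and R2 and R1 overlapped. The means were 6.11 ± 0.08 in R3, 6.70 ± 0.12 in R2 and 6.74 ± 0.12 in R1 (SD, n = 3 each). R3 was 1.51-fold lower than R2 (log2 fold change -0.59, interval -0.80 to -0.38, SE 0.09, limma adjusted p = 0.00314) and 1.54-fold lower than R1 (-0.63, interval -0.83 to -0.42, SE 0.09, limma adjusted p = 0.00167). R2 minus R1 was -0.04 (interval -0.24 to 0.17, limma adjusted p = 0.937).

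Il1rn held its calls in 20 of 22 alternative settings against R2 and in 21 of 22 against R1. Against R2 the limma adjusted p was 0.0583 without replicate 1 and 0.0527 without replicate 2 of all populations. Against R1 the call was lost with the methods' t-test (adjusted p = 0.0532), and that test kept the call against R2 narrowly (adjusted p = 0.0498). Without the granule-high R3 arrays, the log2 fold change of Il1rn was -0.69 against R2 and -0.72 against R1. That fit keeps 1 R3 array, so R3 has no spread of its own in it.

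**Figure D2:**
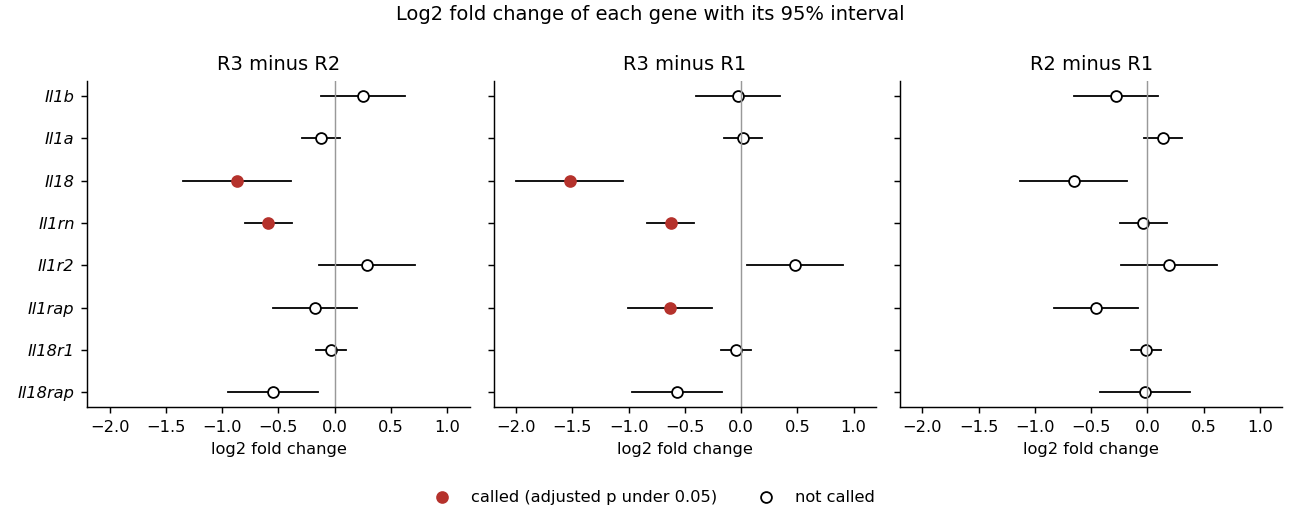
Log2 fold change (x axis) with its 95% interval for each gene in R3 minus R2, R3 minus R1 and R2 minus R1. Filled points are called by limma at an adjusted p under 0.05: Il18 and Il1rn in the first panel, Il18, Il1rn and Il1rap in the second, and none in the third.

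The balance of antagonist to agonist transcript was taken as Il1rn minus Il1b within each array, which does not depend on the scaling of the array. It was 0.74, 0.42 and 0.10 in R3, 1.31, 1.00 and 1.47 in R2, and 1.12, 1.00 and 0.92 in R1. All R3 values lay below all others. Only the change between populations can be read, since the brightness of a probe set also depends on its probes. The mean of R3 differed by -0.84 from that of R2 and by -0.60 from that of R1 (exact two-sided permutation test, p = 0.1 for both, the smallest p that 3 against 3 arrays allow). R2 minus R1 was 0.25 (exact permutation p = 0.2). Within R3 the value was lowest on replicate 3, where Il1b was highest.

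Il1rap (probe set 10434845, chromosome 16) encodes the accessory chain shared by the receptors for IL-1, IL-33 and IL-36. It read 6.20, 6.31 and 6.02 in R3, 6.53, 6.40 and 6.12 in R2, and 6.59, 6.66 and 7.17 in R1. R1 lay above both other populations on every array, and R3 and R2 overlapped. The means were 6.18 ± 0.15 in R3, 6.35 ± 0.21 in R2 and 6.81 ± 0.32 in R1 (SD, n = 3 each). R3 was 1.55-fold lower than R1 (log2 fold change -0.63, interval -1.004 to -0.26, SE 0.17, limma adjusted p = 0.0342). R3 minus R2 was -0.175 (interval -0.55 to 0.20, limma adjusted p = 0.686), and R2 minus R1 was -0.46 (interval -0.83 to -0.08, limma adjusted p = 0.349).

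The Il1rap call was lost in 14 of 22 alternative settings, with limma adjusted p from 0.02 to 0.37. Leaving out any 1 R3 array gave 0.0542 to 0.110, R2 replicate 2 gave 0.0582, R1 replicate 2 gave 0.0520, R1 replicate 3 gave 0.0712 with the log2 fold change at -0.45, and any 1 replicate number gave 0.0754 to 0.152. With replicate 3 of all populations left out the log2 fold change was -0.37, and with the replicate number as a block the limma adjusted p was 0.070.

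Il18rap (probe set 10345824, chromosome 1), the signaling chain of the IL-18 receptor, was below both other populations on every R3 array but was not called. It read 5.04, 4.58 and 4.70 in R3, 5.34, 5.12 and 5.51 in R2, and 5.32, 5.04 and 5.66 in R1. The highest R3 array and the lowest R1 array were both 5.04 when rounded with R3 the lower by less than 0.01. R3 minus R2 was -0.55 (interval -0.95 to -0.15, limma adjusted p = 0.102) and R3 minus R1 was -0.57 (interval -0.97 to -0.17, limma adjusted p = 0.0689). With the replicate number as a block, both differences were called (limma adjusted p = 0.0407 and 0.0274), and R3 was below R2 and R1 within each of the 3 replicate numbers. Without R3 replicate 1 or R1 replicate 2 the difference from R1 was called as well (limma adjusted p = 0.0469 and 0.0355), as it was after quantile normalization (0.0481). These were the only settings with a call: 1 of 21 alternatives for the difference from R2 and 4 of 21 for that from R1. With the methods' t-test the adjusted p was 0.243 against R2 and 0.341 against R1. With an offset of 32 added before the log2 the differences were smaller, at -0.28 from R2 and -0.29 from R1, and without replicate 3 of all populations R3 minus R1 was -0.37, none of these called.

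Il18r1 (probe set 10345807, chromosome 1), the ligand-binding chain of the IL-18 receptor, read 3.72 to 3.81 in R3, 3.78 to 3.80 in R2 and 3.77 to 3.85 in R1. Its population means differed by at most 0.05, and its mean stood at percentile 14.2 of the means of all probe sets. Its R3 minus R1 difference was -0.05 with an interval of -0.18 to 0.09 (limma adjusted p = 0.724). No detection call was used here, so transcript that is absent and transcript below what the probe set resolves cannot be told apart.

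Il1r2 (probe set 10345752, chromosome 1) encodes the decoy receptor and was the one member whose mean was highest in R3, without a call. It read 5.70, 5.44 and 5.71 in R3, 5.10, 5.44 and 5.44 in R2, and 4.68, 5.46 and 5.26 in R1. The 9 arrays held 7 distinct values, with 1 value shared by R3 replicate 2 and R2 replicates 2 and 3. Its mean stood at percentile 39.4 of the means of all probe sets. The populations overlapped, and R1 replicate 1 was the lowest of the 9 arrays. R3 minus R1 was 0.48 (interval 0.05 to 0.91, limma adjusted p = 0.149) and R3 minus R2 was 0.29 (interval -0.14 to 0.72, limma adjusted p = 0.507). Its 2 highest arrays, R3 replicates 1 and 3, were those high in Ltf, Camp and Ngp, and without them R3 minus R1 was 0.30 (limma adjusted p = 0.726) and R3 minus R2 was 0.11. R3 minus R1 was also smaller without R1 replicate 1, at 0.26, and R3 minus R2 without R2 replicate 1, at 0.18. With 1 replicate number left out of all populations, R3 minus R1 was 0.21 without replicate 1 and 0.73 without replicate 2, and R3 minus R2 was 0.14 without replicate 1. Il1r2 is also a neutrophil transcript, and the part of granule-high arrays in its level was not tested. In the RefSeq order of chromosome 1, Il1r2, Il1r1, Il1rl2, Il1rl1, Il18r1 and Il18rap are neighbours. The neighbour Il1rl2, which encodes the IL-36 receptor, read 5.80 to 5.99 in R3, 5.95 to 6.38 in R2 and 4.62 to 6.57 in R1, and its lowest value was also that of R1 replicate 1.

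All R3 arrays lay below all R2 arrays for 3 of 8 members (Il1rn, Il18 and Il18rap) and below all R1 arrays for 4 of 8 (these, with Il18rap by less than 0.01, and Il1rap), where 12.2% and 12.9% of all genes did so. All R2 arrays lay below all R1 arrays for 1 of 8 (Il1rap), where 7.99% of all genes did so.

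**Figure D3:**
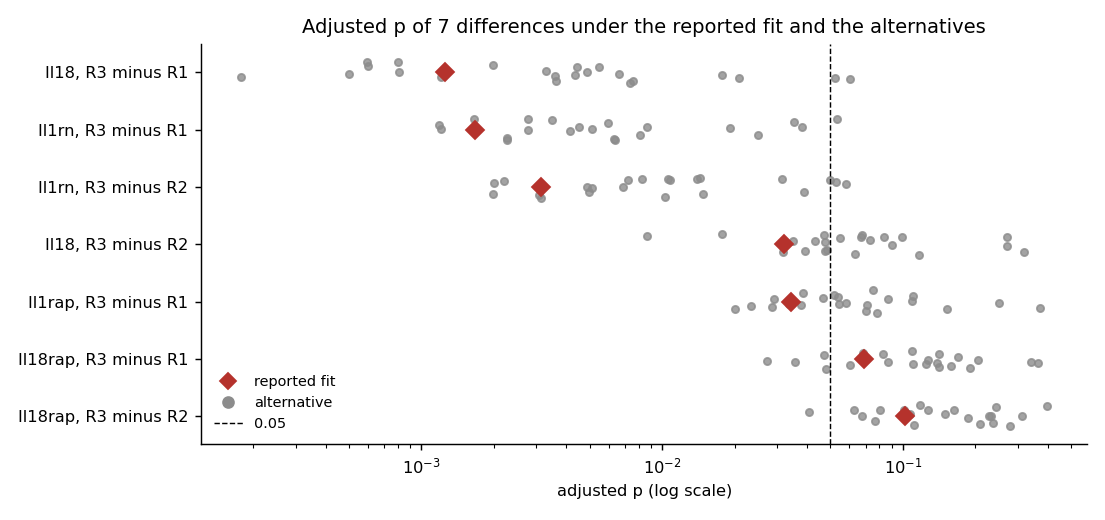
Limma adjusted p (x axis, log scale) of 7 differences in the reported fit (diamonds) and in each alternative setting (gray points, the methods' t-test among them), with a dashed line at 0.05. The points of Il18 and Il1rn in R3 minus R1 lie mostly left of the line, and those of Il18 in R3 minus R2 and Il1rap in R3 minus R1 lie on both sides of it.

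Fabp7, Tlr1 and Cd300lf had the patterns most like that of Il18 over the 9 arrays, by Pearson correlation of log2 intensity (0.99, 0.98 and 0.97). Fabp7, a fatty acid binding protein gene, averaged 5.01 in R3, 6.39 in R2 and 7.05 in R1. For Il1rap the closest genes were Slc43a2, Crbn and Tango2 (0.98, 0.97 and 0.94). These correlations are descriptions over arrays that share populations and label dates, picked as the highest of all genes.

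The other genes of the IL-1 family gave no call in any comparison (10 of 11 measured). In R3 against R1, 1 of the 10 was called with the replicate block and 1 with the filter on dim genes, and in R3 against R2, 1 was called after quantile normalization and 1 without R1 replicate 3. Sigirr, an inhibitory member of the receptor family, came closest. It read 7.80, 7.52 and 7.54 in R3, 7.21, 7.34 and 7.10 in R2, and 7.34, 7.34 and 6.98 in R1, so that R3 lay above both. Its log2 fold change was 0.40 against R2 (limma adjusted p = 0.0836) and 0.40 against R1 (limma adjusted p = 0.0676), and the gene was singled out after its values were seen. Il18bp, the gene of the IL-18 capture protein, was named for its role and read 6.75 to 7.14 in R3, 7.02 to 7.26 in R2 and 6.56 to 6.98 in R1 (limma adjusted p = 0.484 for R3 against R2 and 0.677 for R3 against R1). Il33 read 3.85 to 4.16 over the 9 arrays.

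Of 18 genes that process IL-1 and IL-18 precursors or release the mature cytokines, 10 were called lower in R3 than in R2 and 0 higher. Against R1, 12 of the 18 were called lower and 0 higher. Over all genes, 4.69% were called lower against R2 and 7.02% against R1. Genes of the list without a call went both ways. The median log2 fold change of the 18 was -0.55 against R2 and -0.68 against R1, beside -0.01 and -0.02 over all genes. The largest differences from R2 were in 3 primary granule proteases that can cleave IL-1 family cytokines, Ctsg (cathepsin G), Elane (neutrophil elastase) and Prtn3 (proteinase 3). Ctsg read 6.51, 6.86 and 7.43 in R3, 11.56, 11.20 and 11.38 in R2, and 10.27, 10.59 and 11.03 in R1. R3 was lower by far on each array, with log2 fold changes of -4.45 against R2 and -3.70 against R1 (limma adjusted p = 6.45e-06 and 1.28e-05). Elane differed by -4.16 and -3.46 and Prtn3 by -3.21 and -2.51 in the same comparisons (limma adjusted p of at most 1.55e-04). These protease genes are known from neutrophil and monocyte precursors, and they were low on all 3 R3 arrays, including those high in Ltf, Camp and Ngp.

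Nlrp1a, an inflammasome sensor, read 4.97, 5.44 and 5.93 in R3, 7.75, 7.71 and 7.78 in R2, and 7.83, 7.91 and 8.19 in R1 (-2.30 against R2 and -2.53 against R1, limma adjusted p = 1.08e-04 and 4.56e-05). Casp4, which encodes the mouse caspase that senses bacterial lipopolysaccharide in the cytosol, was the 1 gene of the list called between R2 and R1. It read 6.59, 6.66 and 6.68 in R3, 8.32, 8.56 and 8.40 in R2, and 9.03, 8.95 and 8.93 in R1, so that the 3 populations were separate. R2 was lower than R1, with a log2 fold change of -0.54 (limma adjusted p = 0.0338), and R3 minus R2 was -1.78 (limma adjusted p = 2.12e-06). No gene of the list was called between R2 and R1 with the methods' t-test, in the fit to the 6 arrays of R2 and R1, or with the replicate block. The same held without any 1 replicate number, and without any single array other than R3 replicate 2 and R1 replicate 3. Casp1, the caspase that matures IL-1β and IL-18, was named after its values were seen. It read 9.23, 9.14 and 9.01 in R3, 9.48, 9.59 and 9.54 in R2, and 9.62, 9.83 and 9.76 in R1. R3 was below both, with log2 fold changes of -0.41 against R2 and -0.61 against R1 (limma adjusted p = 0.013 and 0.00111). Of the 18 genes, 6 had no call in R3 against R1, among them Pycard, the inflammasome adaptor (named after its values were seen), at 11.16 to 11.22 in R3, 11.00 to 11.21 in R2 and 10.88 to 11.28 in R1. Without the granule-high R3 arrays, 7 of the 18 were called lower than in R2 and 9 lower than in R1. In R3 against R1, 5 were called with the methods' t-test and 7 without replicate 2 of all populations.

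**Figure D4:**
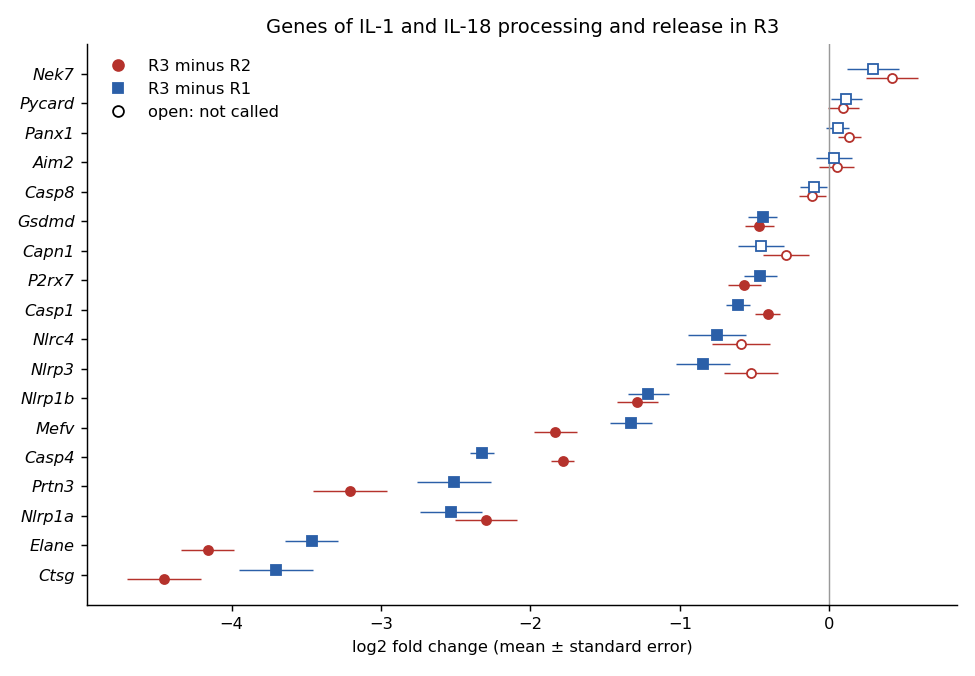
Log2 fold change with its standard error (x axis) of the 18 genes of IL-1 and IL-18 processing and release, R3 minus R2 (circles) and R3 minus R1 (squares). Filled symbols are called by limma at an adjusted p under 0.05, and all filled symbols lie left of 0, down to Ctsg at -4.45 and -3.70.

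Among genes that relay the signal of IL-1 and IL-18 receptors (17 listed), 2 of 15 measured were called lower in R3 than in R2. Against R1, 4 of the 15 were called lower, and 0 were called higher in either comparison. Over all genes, 4.69% were called lower against R2 and 7.02% against R1. The median log2 fold changes of the 15 were -0.14 and -0.20. Irak3 encodes a kinase relative that dampens this signal. It read 7.58, 7.12 and 7.27 in R3, 9.46, 9.31 and 9.31 in R2, and 9.63, 9.88 and 9.72 in R1, with R3 far below both (-2.04 and -2.42, limma adjusted p = 9.24e-06 and 2.51e-06). Tifa, a partner of the ubiquitin ligase TRAF6, was lower in R3, with log2 fold changes of -0.39 against R2 and -0.76 against R1 (limma adjusted p = 0.00534 and 8.07e-05). Myd88, the adaptor of both receptors, read 9.14, 9.06 and 9.42 in R3, 9.31, 9.29 and 9.57 in R2, and 9.74, 9.89 and 9.97 in R1. It was called lower in R3 than in R1 (-0.67, limma adjusted p = 0.00508) and not in R3 against R2 (-0.18, limma adjusted p = 0.494). Peli1, a ubiquitin ligase of the pathway, was lower in R3 than in R1 (-0.29, limma adjusted p = 0.0397). None of the 15 was called between R2 and R1 in the reported fit. With an offset of 32, 1 was called lower in R2 than in R1, and with array weights 2 were.

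Among 16 genes that NF-κB induces downstream of these receptors, 2 were called lower in R3 than in R2 and 1 higher. Over all genes, 4.69% were called lower and 4.85% higher in that comparison. Against R1, 4 of the 16 were called lower and 0 higher, where 7.02% and 6.49% of all genes were. The median log2 fold changes of the 16 were -0.001 and -0.17. The gene called higher was Nfkbia, which encodes the inhibitor IκBα. It read 9.63, 9.43 and 9.56 in R3, 8.72, 9.05 and 8.88 in R2, and 9.47, 9.76 and 9.37 in R1, so that the R2 arrays read lowest. R3 minus R2 was 0.66 (limma adjusted p = 0.0077), and R2 minus R1 was -0.65 without a call (limma adjusted p = 0.0756). Ccl3 and Ccl2, chemokines of monocytes, were lower in R3, with log2 fold changes of -1.71 and -0.96 against R2 and -2.05 and -1.12 against R1 (limma adjusted p of at most 0.0368). Ccl3 spread widely, at 6.01, 5.55 and 6.91 in R3, 8.01, 7.95 and 7.65 in R2, and 7.79, 7.66 and 9.19 in R1. Birc3, an inhibitor of cell death, and Tnf were lower in R3 than in R1 (-0.47 and -0.49, limma adjusted p = 0.00609 and 0.0486). Without the granule-high R3 arrays, 0 of the 16 were called against R2 and 2 against R1. With the methods' t-test 1 was called against R2 and 0 against R1.

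Among markers of T and natural killer cells, which use the IL-18 receptor, the defining natural killer genes were dim. Ncr1 read 3.71 to 3.96 in R3, 3.92 to 4.17 in R2 and 3.70 to 4.21 in R1, and Klrb1c 3.02 to 3.52 over the 9 arrays. The list summed to 400 to 428 in R3, 607 to 778 in R2 and 503 to 651 in R1 (11 of 12 genes measured). Of the 11, 1 was called, Nkg7, lower in R3 (-2.16 against R2 and -1.46 against R1, limma adjusted p = 0.00302 and 0.0181), the same direction as Il18rap, and its part in the level of Il18rap was not tested. The basophil and mast cell markers summed to 340 to 524 in R3, 491 to 534 in R2 and 380 to 394 in R1 (10 genes), with 1 called, Mcpt8, lower in R3 than in R2 (-1.57, limma adjusted p = 0.0113). The B cell markers gave no call and summed to 745 to 783 in R3, 561 to 648 in R2 and 585 to 629 in R1 (8 of 9 genes measured).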

How the data were processed

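RNA of sorted bone marrow cells (1 ng per sample) was amplified and biotin-labeled with NuGEN kits and hybridized to Affymetrix arrays, 3 per population. The authors deposited 1 linear intensity per probe set and array (34760 probe sets) and analyzed the arrays in GenePattern. Background correction, summarization and normalization are not given in the sources used here, and a scaling that differed between arrays would move all genes of an array together. Of the probe sets, 21640 name 1 gene, 1321 several and 11799 none. A gene was represented by its probe set with the highest mean, and genes were matched to RefSeq (GRCm38.p6) for names.

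Log2 intensities of all 9 arrays were fitted in 1 model with limma 3.58.1 (R 4.3.3, lmFit and eBayes), with Benjamini-Hochberg adjustment over 19937 genes, and genes were called at an adjusted p under 0.05. The script was tested on simulated data. The precision is limited by 3 arrays per population. Exact permutation tests enumerated all regroupings in Python 3.11.15. Alternatives were an offset of 32, median centering, quantile normalization, array weights, the mean of probe sets, a filter on dim genes (above 5.94 in at least 1 population), fits to 6 arrays, the methods' t-test (the unpaired test named in the study), the label date as a replicate block, and leaving out arrays or dates. The arrays are paired by label date. Deviations from population means over all genes correlated between arrays of 1 date at -0.02 to 0.15.

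The members and lists were chosen with earlier results of these data known. Named are all measured members, for each list and comparison at most the 4 called genes with the largest log2 fold change, and the 3 genes closest to the 2 members with the widest range of means, beside genes said to be chosen later. Measured as Il1f6, Il1f8 and Il1f9 are the IL-36 ligands. Il1r1, Il1rl1, Il36rn, Irak4, Chuk and some cell type markers were not analysed here, and neither was the planned difference of Il1r2 and Il1r1.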

Additional observations from a re-analysis of the deposited data

How the results depend on the processing

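With 3 arrays per population, calls near the threshold moved with the setting. Of the 8 members, 2 were called in R3 against R2. That count was 1 with an offset of 32, in the fit to the 6 arrays of both populations, with the methods' t-test and without the granule-high R3 arrays (chosen after seeing the data), and 0 to 2 when arrays or label dates were left out. In R3 against R1 the count of 3 became 1 with the methods' t-test, 1 without the granule-high R3 arrays, 1 to 3 when arrays or dates were left out, 2 with an offset of 32, 2 in the fit to 6 arrays and 4 after quantile normalization, which added Il18rap. In R2 against R1 it was 0 in all settings. With the replicate block (label date), 3 members were called in R3 against R2 and 3 in R3 against R1, with Il18rap added in both and Il1rap lost. Signs turned only for differences near 0 that no setting called. These were Il18r1 in R3 against R2 (0.0173 after median centering), Il1a in R3 against R1 (-0.0123 after median centering, -0.012 after quantile normalization, -0.0563 without the granule-high R3 arrays, -0.0521 to 0.0787 with arrays or dates left out) and Il18rap in R2 against R1 (0.006 with array weights, -0.172 to 0.140 with arrays or dates left out). With arrays or dates left out the signs also turned for Il1b in R3 against R1 (-0.213 to 0.101), and in R2 against R1 for Il1rn (-0.104 to 0.033), Il1r2 (-0.0321 to 0.354) and Il18r1 (-0.0316 to 0.009). The causes of these changes were not tested. The dim filter left out Il1b, Il1a, Il1r2, Il18r1 and Il18rap. Il1rn minus Il1b kept its direction after quantile normalization, with the offset, with the mean of probe sets, in the replicate block and without each single array, and was not run in the other settings. In the replicate block its exact permutation p was 0.25, the smallest that 3 pairs allow. Dim probe sets limit what can be seen of Il1a and Il18r1. Of the pathway lists, signaling genes called went to 1 in R3 against R2 without any 1 label date, beside 2, and to 2 in R3 against R1 with the t-test and without replicate 1 or 2 of all populations, beside 4. NF-κB response genes called in R3 against R2 went to 1 without replicate 1 or 3, beside 3, and in R3 against R1 to 2 in the fit to 6 arrays, 1 without replicate 1 and 2 without replicate 2 or 3, beside 4.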
